A study of Mus musculus with 6 samples.

Results

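Autophagy is the route by which a cell encloses its own cytoplasm in a double membrane, the autophagosome, and delivers it to the lysosome for breakdown. A kinase complex around ULK1 starts the process, a lipid kinase complex around Beclin 1 marks the growing membrane, and ubiquitin-like conjugation reactions attach LC3 and GABARAP proteins to it, to which cargo receptors bind. Ambra1 encodes a scaffold protein that binds Beclin 1 and ULK1 and is expressed in the developing nervous system, where its loss in the mouse is known for neural tube defects. The transcripts of Ambra1 and of 9 other autophagy genes were followed here in embryonic mouse brain: Becn1, Ulk1, Atg5, Atg7, Atg12, Map1lc3b, Gabarapl1, Sqstm1 and Bnip3l.

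The genes were found by their annotated symbols, which 26 of the 22690 probe sets on the arrays carry. For 9 of the 10 genes there was a probe set that names that gene alone, 23 probe sets in all, and these 9 were among the 8631 genes tested of 12393 on the arrays. The 3 probe sets for Bnip3l also name its pseudogene Bnip3l-ps, so their signal cannot be given to either and is described apart. The brightest probe set of a gene, by mean signal over all arrays, stands for it, and the others are given beside it. The set was built around Ambra1, which was selected on its signal difference between the diabetic and control arrays, so that difference is given as a description and supports nothing.

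The data are 6 Affymetrix arrays of Swiss albino mouse brain at stage E11.5, each hybridised with 1 brain. The control group holds 3 brains from embryos of normal mothers, and the diabetic group 3 malformed brains from embryos whose mothers had diabetes induced with streptozotocin, which kills the beta cells of the pancreas. Maternal diabetes, malformation and any direct effect of streptozotocin cannot be told apart. The labels do not say whether brains shared a litter, so the error concerns these brains and not litters. Each SE is moderated, with the variance of a gene drawn toward that of the other genes. It is therefore not the spread of that gene's own arrays alone. Replicates 1 and 2 of both groups lie in a first value table and replicate 3 of both in a second, made on a different chip type, and every difference was taken within a table. Values are array signals (linear intensity), listed in the order of replicates 1 to 3, changes are differences of log2(signal + 32), diabetic minus control, and none can be read as an amount of protein or a rate of autophagy.

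Markers of neural progenitors, among them Sox2, Vim and Fabp7, were present on all arrays. Their summed signals were 21192 to 25582 in the control and 24893 to 25385 in the diabetic group. Single progenitor markers differed in direction, with 6 of 9 above 0. Vim, of mean signal 12445, had a log2 change of 0.28 ± 0.17 (SE, n = 3 arrays a group) and Sox2 0.23 ± 0.18. Fabp7 had -0.62 ± 0.22 and was lower on the diabetic arrays of each table. Summed neuronal markers, 10 genes, were 12590 to 14140 in the control group. They were 10224 on diabetic replicate 1, 6311 on diabetic replicate 2 and 15877 on diabetic replicate 3. All 10 neuronal genes lay below 0 over both tables, with a median log2 change of -0.45. The neuronal median was -0.87 within the first table and 0.12 within the second. The hypoxia target list, 14 genes on the arrays, summed to 16291 to 21185 in the control and 21278 to 45962 in the diabetic group, the highest again on diabetic replicate 2. Summed mesenchymal markers were lower on the diabetic arrays of each table, at 12633 and 11919 against 14449 and 15056 and then 15065 against 17597, and all 10 genes lay below 0, with a median log2 change of -0.28. Macrophage markers were lower within the first table, at 1187 and 944 against 1683 and 1551, and not within the second, at 1110 against 1002. Erythroid markers, at 43616 to 52603 in the control and 50201 to 57819 in the diabetic group, and endothelial markers, at 1743 to 2909 and 2338 to 2727, overlapped within the first table. The part of these markers in the values below was not tested. No marker of these lists was listed at 0. In whole brains, fewer cells of a type and less RNA per cell cannot be told apart.

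Ambra1 had signals of 228, 401 and 84.4 on the control and 528, 585 and 209 on the diabetic arrays. In each table the diabetic arrays lay above the control arrays, while within the first table the control arrays differed from each other by 0.74 on the log2 scale and the diabetic arrays by 0.14. The log2 change was 0.89 ± 0.21 (SE, n = 3 arrays a group), a 1.85-fold difference on this scale, with 0.81 within the first table and 1.05 within the second. It ranged from 0.70, without control replicate 1, to 1.12, without control replicate 2. The signal of 84.4 on control replicate 3 is a low value, at which a change depends on the pseudocount. Over both tables the Ambra1 change was 0.95 with a pseudocount of 16 and 0.79 with 64. One probe set reads Ambra1 on these arrays, so no second reading of the transcript can be set beside it. In limma, with adjustment over all genes tested, 0 of 8631 genes were called, Ambra1 included, which is a background of 0%, and the smallest adjusted p was 0.526.

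**Figure D1:**
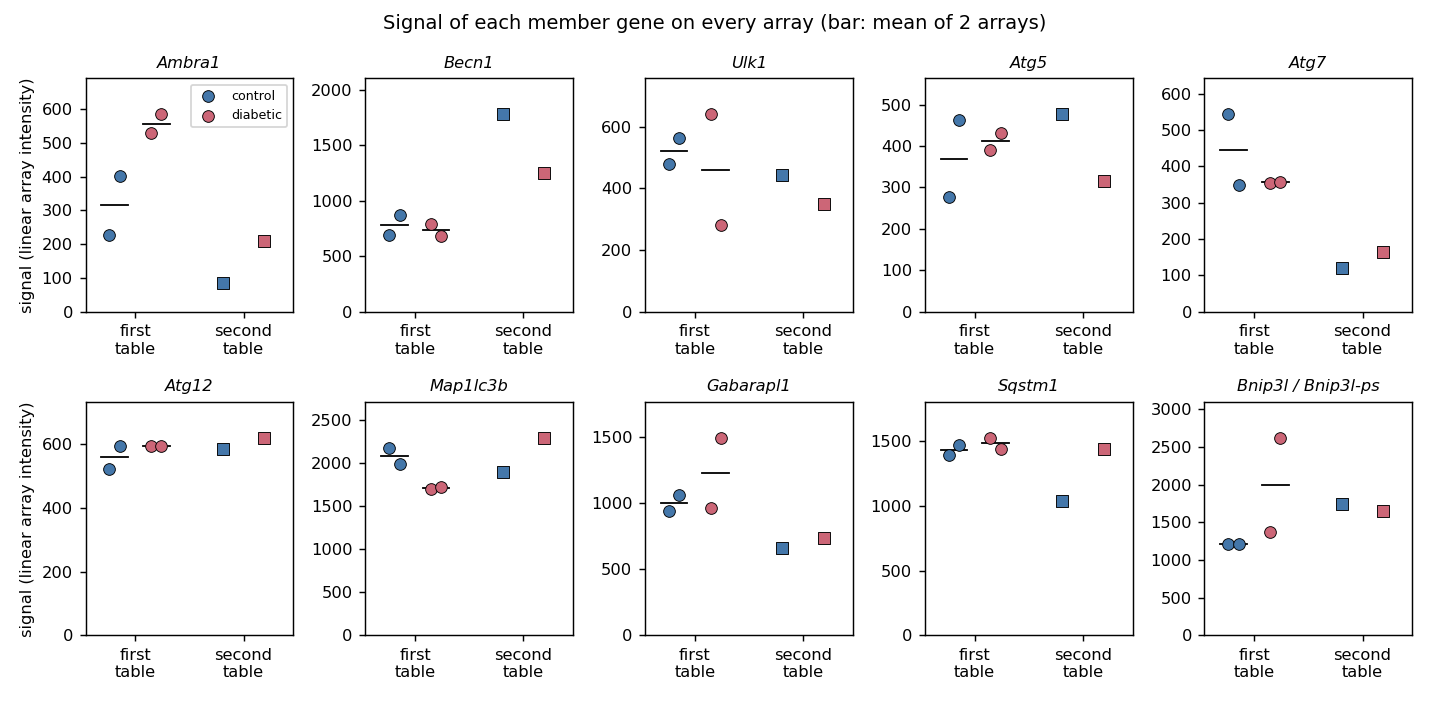
Array signal (linear intensity, vertical axis from 0, each panel on its own scale) of the brightest probe set of each of the 10 genes. Circles are single arrays of the first table, squares single arrays of the second, blue is control and red is diabetic, and the bar is the mean of 2 arrays; Ambra1 is higher on the diabetic arrays in each table (528 and 585 against 228 and 401, then 209 against 84.4), while Becn1, Ulk1, Atg5 and Atg7 overlap between the groups.

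The brightest probe sets of Becn1 and Ulk1, whose products bind the Ambra1 protein, had log2 changes below 0. Becn1, which encodes Beclin 1, the regulatory core of the lipid kinase complex, had signals of 693, 868 and 1781 on the control and 794, 686 and 1253 on the diabetic arrays. The groups overlapped within the first table, and the log2 change was -0.21 ± 0.17 (SE, n = 3 arrays a group), made up of -0.069 within the first table and -0.50 within the second. The other probe sets of Becn1 were split. One of mean signal 968 had a log2 change of -0.20 ± 0.21, and the dimmer pair, of mean signal 161 and 118, had 0.33 ± 0.17 and 0.47 ± 0.22. The probe set of mean signal 118 read 19.3 on control replicate 3 and 74.7 on diabetic replicate 3, where the change depends on the pseudocount.

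Ulk1, the kinase that starts autophagosome formation, had signals of 479, 564 and 443 on the control and 642, 281 and 349 on the diabetic arrays. The diabetic arrays of the first table lay on both sides of the control arrays. The log2 change of Ulk1 was -0.28 ± 0.26 (SE, n = 3 arrays a group) and turned to 0.028 without diabetic replicate 2, the array with the lowest neuronal marker sum. The part of that array's other differences in the Ulk1 value was not tested. A second Ulk1 probe set, of mean signal 254, had 0.33 ± 0.27, with -0.011 within the first table and 1.01 within the second, where its control signal was 66.7 against 167 in the diabetic array.

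The conjugation genes Atg12, Atg5 and Atg7 had the log2 changes nearest to 0 of the 9 genes. ATG7 is the activating enzyme for the coupling of ATG12 to ATG5, and the coupled product in turn helps to attach LC3 to the membrane. Atg12 had signals of 523, 593 and 584 on the control and 593, 593 and 620 on the diabetic arrays. Its log2 change was 0.084 ± 0.15 (SE, n = 3 arrays a group), with 0.086 within the first table and 0.080 within the second, and was 0.035 without control replicate 1 and 0.13 without control replicate 2. The diabetic arrays lay above the control arrays of their table, within the first table by less than 1 unit of signal. Further Atg12 probe sets had 0.12 ± 0.23 and, at a mean signal of 13.6, -0.098 ± 0.16.

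Atg5 had signals of 277, 462 and 477 on the control and 391, 432 and 315 on the diabetic arrays, so that the diabetic arrays of the first table lay between the control arrays. Its log2 change was -0.062 ± 0.23 (SE, n = 3 arrays a group), the result of 0.18 within the first table and -0.55 within the second. The other Atg5 probe sets had 0.30 ± 0.18 and 0.089 ± 0.20. Atg7 had signals of 544, 348 and 122 on the control and 354, 358 and 165 on the diabetic arrays, where control replicate 1 was the highest. The log2 change was -0.060 ± 0.21, and without that array it was 0.17. Dimmer Atg7 probe sets had -0.42 ± 0.18 at a mean signal of 97.1, with the diabetic arrays below the control arrays in each table, and 0.040 ± 0.17 at a mean signal of 44.2.

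Map1lc3b encodes LC3B, the membrane-bound protein by which autophagosomes are usually followed. It had signals of 2178, 1984 and 1892 on the control and 1696, 1722 and 2293 on the diabetic arrays. The diabetic arrays were the lower ones within the first table and the higher one within the second, giving a log2 change of -0.094 ± 0.17 (SE, n = 3 arrays a group), from -0.28 and 0.27. Its other bright probe sets, of mean signal 1781 and 1772, had -0.14 ± 0.15 and -0.15 ± 0.18, and a dim one, of mean signal 18.3, had 0.11 ± 0.15. Gabarapl1, of the sister branch of the same protein family, had signals of 937, 1057 and 662 on the control and 959, 1492 and 736 on the diabetic arrays. Diabetic replicate 2 stood above the other arrays of Gabarapl1. The log2 change was 0.22 ± 0.19 and became 0.034 without that array, and the second probe set had 0.15 ± 0.27.

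Sqstm1 encodes p62, a receptor that carries ubiquitin-marked cargo to LC3 and is itself consumed by autophagy. Its signals were 1389, 1465 and 1033 on the control and 1523, 1437 and 1437 on the diabetic arrays, overlapping within the first table. The log2 change was 0.19 ± 0.16 (SE, n = 3 arrays a group), with 0.052 within the first table and 0.46 within the second. Sqstm1 is also a known target of the oxidative stress factor Nrf2. A list of Nrf2 targets, 8 genes tested, had 3 genes above 0, 5 below and a median of -0.049. Its summed signals were 5600 to 6463 in the control and 5699 to 6460 in the diabetic group. The 3 of highest mean signal, Txnrd1, Gsta4 and Gsr, had -0.0085, 0.28 and 0.26. The part of Nrf2 in the Sqstm1 value was not tested.

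The probe sets shared by Bnip3l and its pseudogene had log2 changes of 0.40 ± 0.27, 0.36 ± 0.23 and 0.37 ± 0.17 (SE, n = 3 arrays a group). BNIP3L, also called NIX, is a receptor on mitochondria that directs them to autophagosomes, best known from maturing red cells, and its gene responds to low oxygen. The brightest of the 3 had signals of 1207, 1210 and 1738 on the control and 1376, 2623 and 1654 on the diabetic arrays. By table, first and then second, the brightest had 0.64 and -0.070 and the next 0.40 and 0.26. The dimmest, of mean signal 637, had 0.44 and 0.23, with the diabetic arrays above the control arrays in each table. Diabetic replicate 2 was the highest on all 3 of these Bnip3l probe sets, and without it their changes were 0.075, 0.10 and 0.24. Bnip3, the related mitochondrial receptor and a hypoxia target, had signals of 902, 797 and 699 in the control group and 860, 4657 and 1220 in the diabetic group. All 13 hypoxia targets tested lay above 0, with a median of 0.61, and medians of 0.095, 1.51 and 0.35 above the control mean on the diabetic arrays. The part of that array and of the hypoxia targets in the Bnip3l signal was not tested.

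Across the 9 genes with a probe set of their own, 4 lay above 0 and 5 below, with a median log2 change of -0.060, beside 52.2% of all genes tested above 0 and a median of 0.012. At an unadjusted p under 0.05 limma counted 1 of the 9, Ambra1, for which it was chosen, against 7.59% of all genes tested (3.72% higher and 3.87% lower). Groups that did not overlap within either table were found for 2 of the 9, Ambra1 and Atg12, both higher, where 11.3% of all genes were higher and 10.7% lower in this way. These counts include the gene chosen for this contrast, and nothing is read from them. The 8 genes other than Ambra1 all had changes of less than 0.3 in size, and 5 of the 8 had the same sign in both tables, where 51.5% of all genes did. Their 95% intervals all spanned 0 and reached from -0.86 for Ulk1 to 0.65 for Gabarapl1, so differences of up to those sizes are not excluded by 3 arrays a group.

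Of the 8 genes with several probe sets, 6 had changes on both sides of 0: Becn1, Ulk1, Atg5, Atg7, Atg12 and Map1lc3b. For Atg7, Atg12 and Map1lc3b the opposite sign came from a probe set of mean signal 44.2, 13.6 and 18.3, under the minimum of 100 used for testing, which leaves Becn1, Ulk1 and Atg5 with probe sets above it that differ in sign. The others were Gabarapl1 and the Bnip3l probe sets, with all readings above 0. Over the 26 probe sets, 16 lay above and 10 below 0, from -0.42 for an Atg7 probe set to the 0.89 of Ambra1. Groups did not overlap within either table for 4 higher probe sets, Ambra1 and 1 each of Becn1 (mean signal 161), Atg12 and Bnip3l. The same held for 2 lower ones, of Atg7 (97.1) and Map1lc3b (1781). Of all genes tested, 11.3% were higher and 10.7% lower in this way, and nothing is read from these counts. With each gene represented by the mean of all its probe sets, 7 of the 9 genes lay above 0, and Becn1, Ulk1 and Atg5 had 0.097, 0.024 and 0.11.

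**Figure D2:**
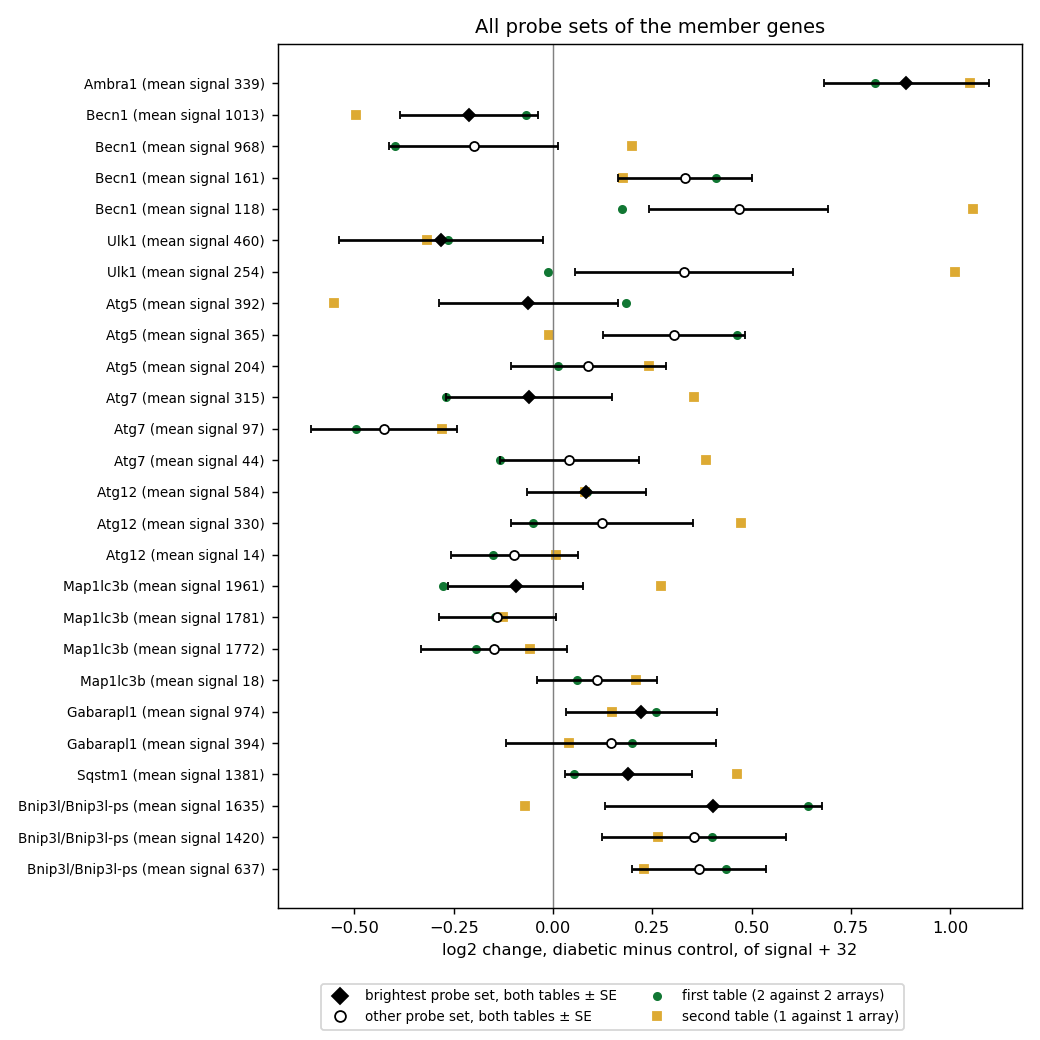
Log2 change (diabetic minus control, signal + 32, horizontal axis) of all 26 probe sets, ordered by gene and by mean signal. Diamonds are the brightest probe set of a gene and open circles the others, over both tables with the standard error (n = 3 arrays a group); green points are the first and yellow squares the second table. Ambra1, at 0.89, has 1 probe set, while those of Becn1 run from -0.21 to 0.47.

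Among all genes tested, 5 had table-centred log2 values nearest to those of Ambra1 over the 6 arrays, by root mean square difference. They were Mbl1, a mannose-binding lectin (0.136), Ppfia4, a liprin (0.140), Prss32, a serine protease (0.146), Gm5802 (0.169) and Trib3, a pseudokinase of the stress response (0.171). Their log2 changes were 0.65 to 0.87, and all 5 had their lowest centred value within the first table on control replicate 1, likenesses that the choice by nearness to Ambra1 on these arrays fixes. On control replicate 3 their signals were 2.89 for Mbl1, 46.6 for Ppfia4, 25.1 for Prss32, 48.3 for Gm5802 and 57.6 for Trib3, low values at which a change depends on the pseudocount. Other probe sets had changes of 0.47 and -0.10 for Ppfia4, at mean signals of 30.5 and 26.9, of 0.086 for Prss32, at 49.6, and of 1.67 for Trib3, at 110, while Mbl1 and Gm5802 had 1 probe set each. Of the other 8 autophagy genes described one by one, the nearest to Ambra1 by this measure was Gabarapl1, at 0.406 and rank 1186 of the genes tested, followed by Sqstm1 at 0.407 and rank 1192.

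**Figure D3:**
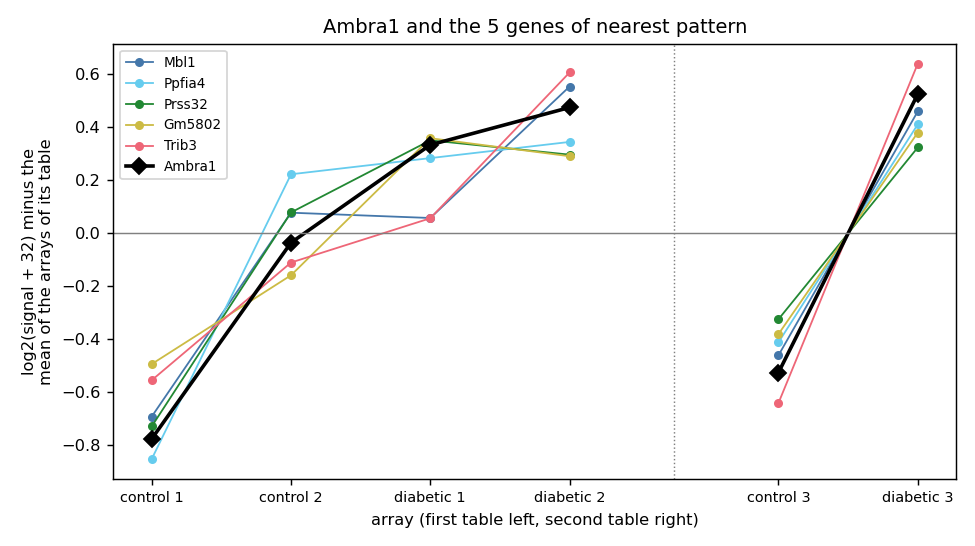
Table-centred log2(signal + 32) on each array (horizontal axis, first table left of the dotted line and second table right of it) for Ambra1 (black diamonds) and the 5 genes of nearest pattern (coloured circles). Control replicate 1 is the lowest array of the first table for all 6 genes, which follows from their choice by nearness; for Ambra1 it lies at -0.78, against -0.035 on control replicate 2.

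The rest of the pathway was read from a list of 124 autophagy and lysosome genes, the 10 above included, of which 104 had a probe set of their own and 101 were tested. In limma 0 of the 101 passed after adjustment over all genes, and at an unadjusted p under 0.05 there were 4 higher and 5 lower, 8.91% of the list against 7.59% of all genes. The list's median log2 change was -0.020, with 49 genes above and 52 below 0, and medians of -0.024 within the first table and 0.090 within the second. Without overlap within either table there were 11 higher and 14 lower genes, 24.8% of the list against 22.0% of all genes tested. These counts include Ambra1, which was chosen for this contrast. With the 10 genes left out, 92 genes were tested, of which 3 were higher and 5 lower at that limma threshold, 8.7%. Of the 92, 9 were higher and 14 lower without overlap, 25%. These shares lay near the background.

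By their brightest probe sets all 5 genes of the initiation complex lay below 0, with a median of -0.28, where 0 passed the adjustment in limma. That median is the value of Ulk1, whose second probe set had 0.33 and whose mean of probe sets had 0.024. Of all genes tested, 52.2% lay above 0. Ulk2, the relative of Ulk1, had signals of 529, 488 and 876 on the control and 397, 352 and 625 on the diabetic arrays, lower in each table, and a log2 change of -0.43 ± 0.15 (SE, n = 3 arrays a group). Its other probe sets had -0.12 and -0.23. Rb1cc1, which encodes the scaffold FIP200 and was named after its values were seen, had -0.40 ± 0.18, with -0.60 within the first table and -0.013 within the second. Atg13 and Atg101, the regulatory subunits, also named after their values were seen, had -0.097 ± 0.21 and -0.11 ± 0.17. Both changed sign between the tables, with 0.12 and then -0.52 for Atg13 and -0.24 and then 0.15 for Atg101.

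In the list for the lipid kinase complex, which also holds Bcl2 and Bcl2l1, 7 of 9 genes lay below 0. The median was -0.14, with -0.095 within the first table and 0.064 within the second. The 2 genes above 0 were Ambra1 and Uvrag, the latter at 0.28 ± 0.18 and named after its values were seen. Nrbf2, a subunit of that complex, had signals of 617, 736 and 732 on the control and 491, 389 and 652 on the diabetic arrays, with a log2 change of -0.45 ± 0.18 (SE, n = 3 arrays a group). The diabetic arrays of Nrbf2 were below the control arrays in each table. Tmem41b, a lipid scramblase of the early membrane, had -0.35 ± 0.15, and its 4 other probe sets had -0.51 to -0.020. Conjugation genes had a median of -0.062 over 7 genes, 1 above 0, and the 5 genes of the LC3 and GABARAP family had a median of 0.20, 3 above 0, with -0.12 within the first table and 0.49 within the second.

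Among upstream regulators, 10 of 21 genes lay above 0 and the median was -0.010. Tsc1, which holds back the growth kinase mTOR, had signals of 471, 507 and 567 on the control and 423, 293 and 405 on the diabetic arrays, and a log2 change of -0.44 ± 0.17 (SE, n = 3 arrays a group). A dimmer Tsc1 probe set, of mean signal 149, had 0.41, so the probe sets disagree. Ddit4, another inhibitor of mTOR signalling that is induced by low oxygen and was named after its values were seen, had 0.91 ± 0.55. Its signals were 1556, 1039 and 1393 in the control group and 992, 6717 and 2278 in the diabetic group, again highest on diabetic replicate 2. Cargo receptors had a median of -0.00028 over 8 genes, with Bnip3 at 1.07 ± 0.48 (0.34 without diabetic replicate 2).

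Lysosomal genes had a median of 0.059 over 28 genes, 19 above and 9 below 0, with -0.021 within the first table and 0.20 within the second. Glb1, the lysosomal beta-galactosidase, had signals of 308, 212 and 273 on the control and 380, 329 and 390 on the diabetic arrays, higher in each table, and a log2 change of 0.44 ± 0.18 (SE, n = 3 arrays a group). Gla, the lysosomal alpha-galactosidase, had 0.38 ± 0.17, and Cln3, a lysosomal membrane protein, 0.36 ± 0.16. A second Gla probe set, of mean signal 27.7, had 0.016. Fusion genes, which join the autophagosome to the lysosome, had a median of 0.12 over 10 genes, 7 above 0. In each of these groups 0 genes passed the adjustment in limma.

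**Figure D4:**
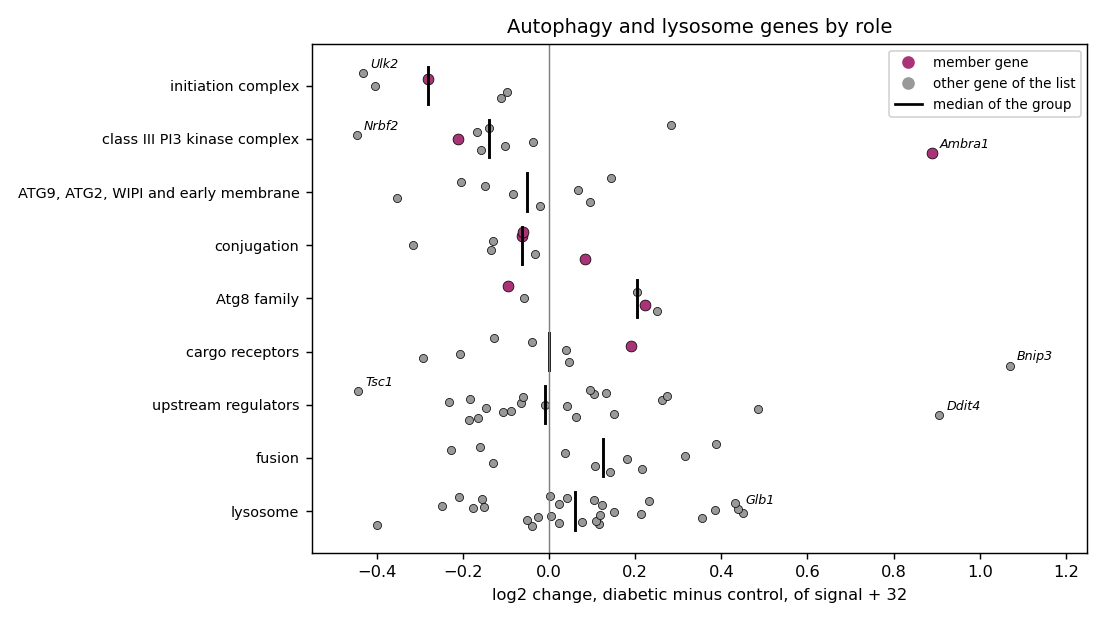
Log2 change (diabetic minus control, signal + 32, horizontal axis) of each tested gene of the autophagy and lysosome list, in rows by role. Purple points are the 9 genes described one by one, grey points the other genes, and the black bar is the median of the row; Ambra1 at 0.89 stands to the right of its row, whose median is -0.14, and Bnip3 at 1.07 and Ddit4 at 0.91 are the other points near 1.

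Promoter sequence was examined because autophagy and lysosome genes are known to share a binding site of TFEB, a transcription factor of lysosome formation, and the hypoxia factors bind a related core. RefSeq promoter windows of the GRCm38.p6 build, from 250 bases before to 50 after a start site, matched 7 of the 10 genes: Ambra1, Ulk1, Atg5, Atg7, Map1lc3b, Gabarapl1 and Sqstm1. Both strands were searched for the palindromic CLEAR element of lysosomal genes, its core CACGTG, the shorter ACGTG that CACGTG contains, and TGACNNNGC, the core of the antioxidant response element. The full CLEAR element was in 0 of the 7, against 0.37% of all genes with a window, a share too small to be seen in 7 genes. CACGTG was in 2, Atg5 and Atg7, against 8.09% of all genes, and the ACGTG matches were in the same windows, against 21.8%. TGACNNNGC was in 1, Map1lc3b, against 14.0%. In the longer list 4 of 103 genes held the full CLEAR element, 3.88%, and 23 held CACGTG, 22.3%. In that list 49 genes held ACGTG, 47.6%, and 21 held TGACNNNGC, 20.4%. The stretches below, in the direction of the gene, are the CACGTG sites of Atg5 and Atg7 with up to 20 bases on each side, in which capitals mark CACGTG, and the 60 bases before the Ambra1 start, which hold no match.
Atg5, chr10:44268305-44268338, plus strand: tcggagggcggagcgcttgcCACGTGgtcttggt
Atg7, chr6:114670944-114670989, plus strand: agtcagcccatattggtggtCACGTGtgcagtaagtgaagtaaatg
Ambra1, chr2:91730078-91730137, plus strand: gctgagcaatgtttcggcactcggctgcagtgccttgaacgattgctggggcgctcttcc
The Atg5 site begins 14 bases and the Atg7 site 132 bases before the start. Atg5 and Atg7, which hold the site, had log2 changes of -0.062 and -0.060. Ambra1, chosen for its 0.89, lacks the site, as do Ulk1, Map1lc3b, Gabarapl1 and Sqstm1, at -0.28, -0.094, 0.22 and 0.19. A relation of the site to the changes was not tested. A match is a description of the letters, not of a bound factor.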

How the data were processed

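The authors deposited linear intensity per probe set, with a column for each array and a table for each of 2 chip types. The submitters' processing notes name the Affymetrix software GCOS (version and algorithm not given in the sources used here). Genes were named from the probe annotation only where it lists 1 gene (20380 probe sets; 691 list several, 1555 none). Each array was brought to a trimmed mean of exactly 500 (2% cut at each end), a shift of 0.0363% or less, and log2(signal + 32), computed here, understates changes of low genes. Genes of mean signal 100 or above were tested with limma 3.58.1 in R 4.3.3 (lmFit, eBayes, two-sided, Benjamini-Hochberg over 8631 genes, threshold 0.05), with the table as a block, 3 residual and 6.37 prior degrees of freedom. All standard errors are moderated by eBayes, and those of other probe sets come from a fit of all probe sets. Precision is limited by the number of arrays, with a median standard error of 0.17. The fit was tested on simulated data. The genes and lists were chosen with earlier results of these data known. Named were the 10 genes, the 4 higher and 4 lower other pathway genes of smallest unadjusted p, and the 5 genes nearest in pattern to Ambra1. Rb1cc1, Atg13, Atg101, Uvrag and Ddit4 were added after their values were seen. Lists had no set test. Alternatives were another pseudocount, filter, normalization, probe set rule, block and array weighting, single tables, and leaving out each array. The run settings deposited with each array gave the chip types and were not used otherwise. The values name no genome build, and promoter coordinates are those of the RefSeq windows.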

Additional observations from a re-analysis of the deposited data

How the results depend on the processing

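The count of genes called by limma was 0 under every alternative with a test, with 416 to 880 genes at an unadjusted p under 0.05 against 655 in the fit reported (416 without control replicate 1, 473 without diabetic replicate 2), and the smallest adjusted p ran from 0.0587, in the first table alone, to 0.948. The Ambra1 change stayed above 0 in each setting, from 0.69 with array weights to 1.12. Ambra1 was chosen for this difference on these same arrays, so that range supports nothing. Without either array of the second table the Ambra1 change was 0.81, the value of the first table alone. The median of the 9 genes, -0.060, became 0.097 with the mean of all probe sets, 0.052 in the first table alone and 0.148 in the second, and 0.0027 to 0.061 when leaving out 1 array at a time. The longer list's median, -0.020, was 0.090 in the second table, and -0.024 to 0.048 when leaving out 1 array at a time. Changes of sign were seen with the mean of all probe sets for Becn1 (0.097), Ulk1 (0.024) and Atg5 (0.11), in the first table alone for Atg5 (0.18), in the second for Atg7 (0.36), Map1lc3b (0.27) and the brightest Bnip3l probe set (-0.070), and without 1 array for Ulk1 (-0.60 to 0.028, the highest without diabetic replicate 2), Atg5 (-0.32 to 0.18, with 0.061 without control replicate 2 and 0.18 without either array of the second table) and Atg7 (-0.27 to 0.17, with 0.17 without control replicate 1 and 0.0027 without diabetic replicate 1). The cause of these was not tested. With the replicate number as a replicate block, limma called 0 genes, with 633 at an unadjusted p under 0.05, and the Ambra1 change was 0.89. The labels tie the numbers to no shared litter or day. Over genes, the difference of control replicates 1 and 2 correlated with that of diabetic replicates 1 and 2 at -0.013, and replicate 3 has its table to itself.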
